A study of Mus musculus with 2 samples.

Results

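The 10 genes described here encode the 5 subunits of the transcription factor NF-kB (Rela, Relb, Rel, Nfkb1 and Nfkb2) and 5 IkB-type or feedback proteins (Nfkbia, Nfkbib, Nfkbie, Nfkbiz and Tnfaip3). Of these 5, Nfkbiz is grouped with the inhibitors here although its nuclear protein can also promote transcription of some targets. They were chosen by symbol from the deposited expression tables, and all 10 were listed in both libraries, among 15113 genes with a read in at least 1 of them. RNA was sequenced from lung epithelial cells, sorted as negative for the leukocyte protein CD45 and positive for surfactant protein C (Sftpc), a product of alveolar type 2 (AT2) cells. The tumour-bearing group carried 1000000 luciferase-labelled LLC cells, an established mouse Lewis lung carcinoma line, injected under the skin of the back as a model of spontaneous lung metastasis. The control group consisted of wild-type mice without a tumour. Mice of both groups were C57BL/6 and 6 to 8 weeks old. Each group was represented by 1 library, and how many mice went into each is not stated in the sources used here. The comparison asks how these epithelial cells differ in lungs of tumour-bearing mice.

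NF-kB is a dimer of Rel-family subunits that waits in the cytoplasm bound to inhibitors of the IkB type. Signals from TNF, IL-1 or Toll-like receptors switch on the IKK kinases, which mark IkB for destruction and let the dimer enter the nucleus. Several of its own inhibitors, above all Nfkbia and Tnfaip3, are among the genes that the dimer then switches on, which makes them a negative feedback loop. In lung epithelium the pathway is known for driving chemokines that call in neutrophils.

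The control library held 13932 listed genes and a total of 5335352 reads as implied by its RPKM values, and the tumour-bearing library 14283 genes and 5387114 reads. Values are RPKM, reads scaled to gene length and to the library total. Sftpc was the most abundant gene of both, at 94902 and 54968 RPKM in control and tumour-bearing cells, and Ptprc, which encodes CD45, had 12 and 2 reads. The 12 AT2 markers summed to 149443 RPKM in control and 100157 RPKM in tumour-bearing cells, with 8 log2 ratios below 0 and 4 above. Most of the gap in that sum came from Sftpc and Lyz2 (21565 and 11436 RPKM), while Sftpd was higher, at 3633 and 7410 RPKM. Over the AT2 markers the median log2 ratio was -0.56. Hc and Etv5 were past 2-fold in the lower direction and Sftpd in the higher. All 10 markers of alveolar type 1 (AT1) cells had a log2 ratio above 0, 6 of them past 2-fold, and they summed to 1771 and 2904 RPKM. The 6 club cell markers summed to 32204 and 36502, the 10 fibroblast markers to 146 and 809, and the 10 endothelial markers to 27.0 and 122. Scgb1a1 gave 30142 and 35116 of the club sums, and 3 club markers had a log2 ratio below 0 and 3 above. Col6a1 gave 121 and 379 of the fibroblast sums. All 9 tested fibroblast markers were past 2-fold in the higher direction, at a median log2 ratio of 3.08. Of the 10 endothelial markers, 8 were past 2-fold in the higher direction and 2, Tek and Kdr, had a log2 ratio below 0. Their median was 1.91. The 12 macrophage and monocyte markers summed to 21.4 and 59.9, and 7 and 4 of them were at 0, with Mrc1, Adgre1 and Marco at 0 in both. Of the 7 tested, 6 had a log2 ratio above 0 and 1 below, at a median of 0.94. Among them Cd68 was at 7.81 and 31.5 RPKM. The 10 pan-leukocyte markers summed to 90.1 and 57.9, of which Lcp1 alone gave 82.7 and 50.3 RPKM while Cd52 was at 0 in both. The 8 neutrophil markers summed to 4.09 and 3.92, with S100a8 at 0 in both, and the 8 lymphocyte markers to 22.8 and 18.2, nearly all from Cd79b. The levels of AT2, AT1, stromal, and macrophage and monocyte markers were thus unequal between the libraries, and their part in the values below was not tested.

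In tumour-bearing cells 3 of the 10 genes, Nfkbia, Nfkbiz and Tnfaip3, were at least 2-fold lower than in control cells, and none was at least 2-fold higher. Nfkbia and Tnfaip3 are feedback inhibitors and Nfkbiz is a nuclear IkB-type gene, and the main activating subunit Rela was at the same level in both libraries. The rule was a log2 ratio of RPKM + 1 of 1 or beyond in either direction, over 12288 genes that reached 1 RPKM in a library. By this rule 6.53% of genes were lower and 9.38% higher. No member passed 4-fold, which 0.61% of genes did in the lower and 1.66% in the higher direction. The median log2 ratio of the 10 genes was -0.38, beside 0.06 over all genes tested. A single library per group allows no test between the conditions, and ratios are given with an exact 95% interval from the reads of both libraries. Such an interval shows the counting error alone and holds nothing of the spread between animals or preparations. In bulk RNA, fewer cells of a type and less RNA per cell cannot be told apart.

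**Figure D1:**
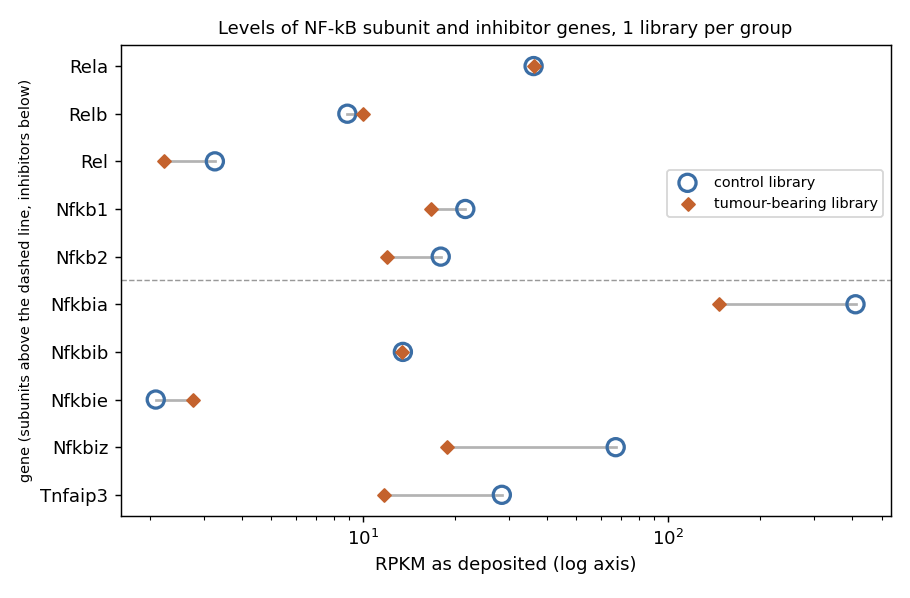
RPKM of the 10 genes on a log axis in the control library (open circles) and the tumour-bearing library (diamonds), 1 library per group. Nfkbia, Nfkbiz and Tnfaip3 lie clearly to the left in the tumour-bearing library, while the symbols of Rela and Nfkbib coincide.

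Rela encodes p65, the subunit that carries the transactivation domain of the classical dimer (GeneID 19697, chromosome 19, 5637442 to 5648134 on mm10). Its level was 36.2 RPKM in control cells and 36.2 RPKM in tumour-bearing cells, from 523 and 528 reads. The ratio of tumour-bearing to control was 1.00 with an interval of 0.884 to 1.13. Rela was the most abundant subunit per length in both libraries, with 41.2% of the summed RPKM of the 5 subunits in control cells and 47.0% in tumour-bearing cells.

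Relb encodes the activating subunit of the alternative pathway (GeneID 19698, chromosome 7, 19606217 to 19629438). Its level was 8.87 RPKM in control cells and 9.96 RPKM in tumour-bearing cells, the latter from 119 reads, a ratio of 1.12 (0.856 to 1.47). Rel, which encodes c-Rel, a subunit best known from lymphocytes and myeloid cells (GeneID 19696, chromosome 11, 23736847 to 23770969), was the lowest of the 5. Its level was 3.26 RPKM in control cells and 2.23 RPKM in tumour-bearing cells, from only 45 and 31 reads, a ratio of 0.682 (0.417 to 1.10). The intervals of Relb and Rel include no difference, and that of Rel reaches past 2-fold, so a difference in Rel was not resolved at this depth.

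The precursor subunits were lower in tumour-bearing cells by less than 2-fold. Nfkb1, whose precursor is cut to p50, the usual partner of p65 (GeneID 18033, chromosome 3, 135584655 to 135691969), was at 21.6 and 16.7 RPKM in control and tumour-bearing cells, from 476 and 371 reads. Its ratio was 0.772 (0.672 to 0.886). Nfkb2, whose precursor is cut to p52, the partner of RelB, and otherwise itself retains RelB in the cytoplasm (GeneID 18034, chromosome 19, 46300994 to 46312400), was at 18.0 and 12.0 RPKM, from 307 and 207 reads. Its ratio was 0.668 (0.557 to 0.799), and 17.3% of all genes tested had a lower log2 ratio. The intervals of both genes lay below 1, and neither reached 2-fold. The 5 subunits together summed to 87.9 RPKM in control cells and 77.0 RPKM in tumour-bearing cells.

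Among the inhibitors, Nfkbia was the only classical IkB gene whose counting interval did not include 1. Nfkbia encodes IkBα, which binds p65 dimers, is destroyed on stimulation and is then resynthesised (GeneID 18035, chromosome 12, 55489409 to 55492647). Its level was 411 RPKM in control cells, rank 108 of all genes by RPKM, and 147 RPKM in tumour-bearing cells, rank 383, from 3490 and 1262 reads. This was a 2.79-fold lower level (2.62 to 2.98), with a log2 ratio of -1.48, and 2.20% of the genes tested had a lower one. Nfkbia was by far the most abundant of the 10 genes in both libraries.

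Nfkbib and Nfkbie encode IkBβ and IkBε, which bind the same dimers. Nfkbib (GeneID 18036, chromosome 7, 28758251 to 28766644) had 140 reads in each library, at 13.5 and 13.4 RPKM in control and tumour-bearing cells, and a ratio of 0.9904 (0.778 to 1.26). Nfkbie (GeneID 18037, chromosome 17, 45555700 to 45563169) was at 2.09 and 2.76 RPKM, from 27 and 36 reads, a ratio of 1.32 (0.780 to 2.26). The interval of Nfkbib lay within 2-fold of equality on both sides, whereas the reads of Nfkbie were too few to tell no difference from 2-fold.

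Nfkbiz encodes IkBζ, an inducible IkB-type protein that acts in the nucleus, where it binds p50 and is needed for a subset of secondary response genes (GeneID 80859, chromosome 16, 55811375 to 55838954). Its level was 67.2 RPKM in control cells and 18.8 RPKM in tumour-bearing cells, from 1383 and 390 reads. It was 3.58-fold lower in tumour-bearing cells (3.20 to 4.02), the largest difference among the 10 genes, with 0.977% of the genes tested at a lower log2 ratio. Tnfaip3 encodes A20, an enzyme that edits ubiquitin chains on signalling proteins upstream of IKK and so ends the signal (GeneID 21929, chromosome 10, 19000910 to 19015410). Its level was 28.5 RPKM in control cells and 11.7 RPKM in tumour-bearing cells, from 674 and 279 reads, 2.44-fold lower (2.12 to 2.81), with 3.89% of genes at a lower log2 ratio. For Nfkbia, Nfkbiz and Tnfaip3 the whole counting interval lay beyond 2-fold, as it did for 3.73% of 12276 tested genes with recovered reads, with 6.26% wholly past 2-fold in the higher direction.

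**Figure D2:**
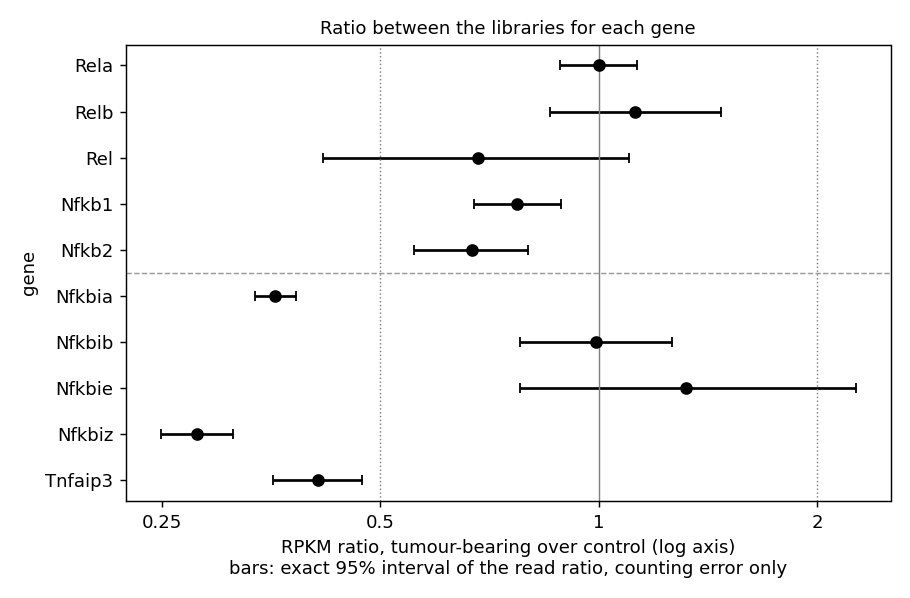
Ratio of RPKM in the tumour-bearing over the control library for each gene on a log axis, with bars for the exact 95% interval of the read ratio (counting error only), a solid line at 1 and dotted lines at 2-fold. The intervals of Nfkbia, Nfkbiz and Tnfaip3 lie wholly below the lower 2-fold line, those of Nfkb1 and Nfkb2 between it and 1, and those of the other 5 genes include 1.

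Ratios between genes within a library do not depend on how the libraries were scaled, so each gene was also read against Rela. Because the ratio of Rela between the libraries was itself 1.00, the folds against it repeat the direct ones and are not a separate result. In the control library Nfkbia stood at 11.4 times the RPKM of Rela, and in the tumour-bearing library at 4.07 times. Nfkbiz was above Rela in the control library, at 1.86 times its RPKM, and below it in the tumour-bearing library, at 0.519 times. Tnfaip3 was at 0.787 and 0.323 times Rela. The fold by which these ratios were lower in tumour-bearing cells was 2.79 (2.43 to 3.21) for Nfkbia, 3.58 (3.02 to 4.24) for Nfkbiz and 2.44 (2.02 to 2.95) for Tnfaip3. Against Rela, Nfkb1 and Nfkb2 were lower by 1.295-fold (1.08 to 1.56) and 1.497-fold (1.20 to 1.87), while the intervals of Relb, Rel, Nfkbib and Nfkbie included no difference. Summed over each role, the 5 inhibitors, Nfkbiz included, had 5.94 times the RPKM of the 5 subunits in control cells and 2.51 times in tumour-bearing cells. Nfkbia alone made up 78.7% and 76.0% of the inhibitor sums. The ratio of sums thus mostly reflects Nfkbia and does not describe each inhibitor.

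**Figure D3:**
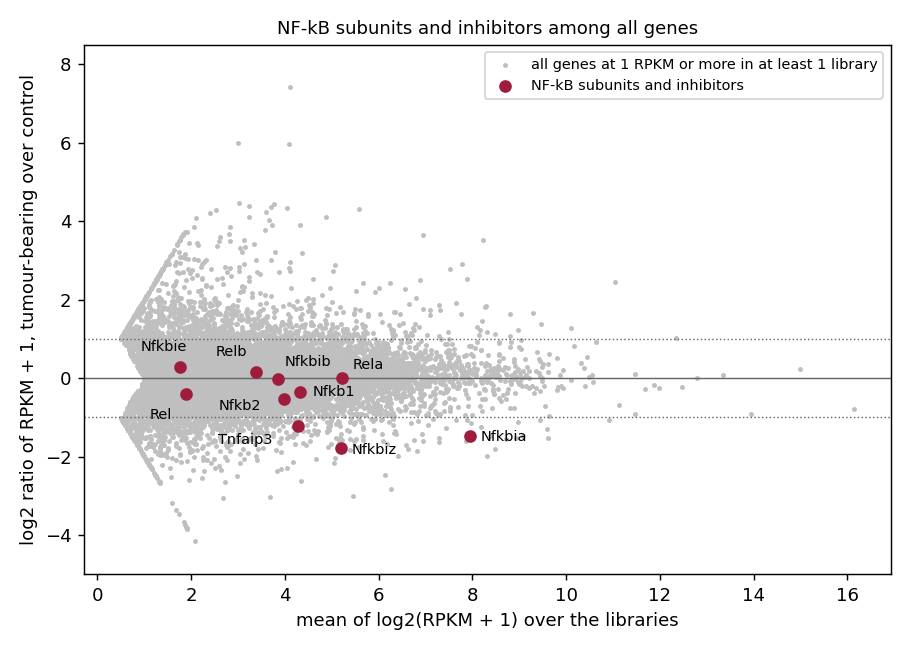
Log2 ratio of RPKM + 1, tumour-bearing over control, against the mean log2(RPKM + 1) of both libraries for 12288 genes (grey) and the 10 NF-kB genes (red), with dotted lines at 2-fold. Nfkbiz, Nfkbia and Tnfaip3 lie below the lower line at -1.79, -1.48 and -1.22, and the other 7 genes between -0.55 and 0.28.

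Promoters were examined for the letters that NF-kB dimers bind, because the genes at lower level include known targets of the factor. RefSeq promoter windows on GRCm38.p6, the assembly of mm10, reach from 250 bases before to 50 after each transcription start. They were present for 7 of the 10 genes, Nfkb1, Relb and Nfkbiz being without an entry. A strict form of the kB site, GGG followed by any 2 bases and TTTCC, was searched on both strands and was found in the windows of Nfkbia, Tnfaip3, Rel and Nfkb2, against 1.89% of all 27025 genes with a window. It was not found in those of Rela, Nfkbib and Nfkbie. A looser form, GGG followed by any 5 bases and CC, which includes every strict match, was present for 6 of the 7 genes and for 53.5% of all genes. The AP-1 motif TGACTCA was found for Tnfaip3 and Nfkbie, against 5.95% of all genes. A match of letters does not show that a factor binds there.

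The 4 strict matches are shown with 10 bases on each side, 5′ to 3′ in the direction of the gene and with the motif in capitals. The Nfkbia match spans chr12:55492657-55492686 with its flanks on the minus strand, the Tnfaip3 match chr10:19015403-19015432 on the minus strand, the Rel match chr11:23771041-23771070 on the minus strand and the Nfkb2 match chr19:46304716-46304745 on the plus strand.
Nfkbia: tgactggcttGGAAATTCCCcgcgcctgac
Tnfaip3: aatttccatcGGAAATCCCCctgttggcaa
Rel: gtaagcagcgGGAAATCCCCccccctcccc
Nfkb2: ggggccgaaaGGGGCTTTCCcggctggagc
The motif ended 19 bases before the start site in Nfkbia, 2 in Tnfaip3, 81 in Rel and 1 in Nfkb2, for which the first of its windows is shown and the others hold a further match.

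Sequence upstream of the start, cut where an annotated exon begins, is given for Nfkbia and Tnfaip3, both at lower level in tumour-bearing cells, and for Nfkbib, the IkB gene with equal reads in both libraries. Capitals mark the strict kB motif and the AP-1 motif. The runs lie at chr12:55492648-55492897, chr10:19015411-19015547 and chr7:28766645-28766734, all on the minus strand.
Nfkbia: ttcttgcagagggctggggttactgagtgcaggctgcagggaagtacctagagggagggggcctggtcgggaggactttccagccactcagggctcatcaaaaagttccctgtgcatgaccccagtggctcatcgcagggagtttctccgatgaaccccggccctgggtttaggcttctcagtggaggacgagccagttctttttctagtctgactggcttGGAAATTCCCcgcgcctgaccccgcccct
Tnfaip3: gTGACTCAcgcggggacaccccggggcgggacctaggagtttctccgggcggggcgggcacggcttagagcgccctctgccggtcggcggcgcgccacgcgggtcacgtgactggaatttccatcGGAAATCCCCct
Nfkbib: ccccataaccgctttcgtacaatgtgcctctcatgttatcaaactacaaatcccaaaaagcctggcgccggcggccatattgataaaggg
The Nfkbia run holds 1 strict kB motif, close to its end, the Tnfaip3 run 1 at its end and 1 AP-1 motif at its beginning, and the Nfkbib run none of either. The runs are 250, 137 and 90 bases long, so their motif content cannot be compared directly. Of the other genes with a match, Nfkb2 (strict kB) had a ratio whose interval lay below 1, though not past 2-fold. The intervals of Rel (strict kB) and Nfkbie (AP-1) included no difference, from few reads. Whether motifs go with levels was not tested.

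The rest of the pathway was read from lists of genes by role. The IKK kinases, the related kinases Tbk1 and Ikbke, and scaffold or adaptor proteins of either (7 genes) all lay within 2-fold on the log2(RPKM + 1) scale. Their median was 0.42. The direct ratio of Ikbke, named after its values were seen, was 2.03 (1.18 to 3.597) from 21 and 43 reads. Ikbkg, the scaffold subunit NEMO, was at 3.93 and 7.67 RPKM in control and tumour-bearing cells, a ratio of 1.95 (1.59 to 2.40). Ikbkb, the catalytic subunit IKKβ, had a ratio of 1.42 (1.10 to 1.85), and Tbk1, a related kinase, one of 1.44 (1.22 to 1.70). Tank, an adaptor of TBK1, had a ratio of 0.817 (0.641 to 1.04). Of the 7 genes, 5 had a log2 ratio above 0 and 2 below.

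Of the receptors that feed the pathway, 13 of 15 were tested and none passed 2-fold on the log2(RPKM + 1) scale, with a median of 0.05. Ltbr, the lymphotoxin β receptor, was at 46.6 and 81.9 RPKM, a ratio of 1.76 (1.58 to 1.96). Tnfrsf12a, the receptor of TWEAK, had a ratio of 1.48 (1.20 to 1.82), and Ager, an abundant AT1 cell marker as well as a receptor, one of 1.46 (1.42 to 1.495). Tlr4, the lipopolysaccharide receptor, was at 7.84 and 3.72 RPKM, from 161 and 77 reads, with a ratio of 0.474 (0.356 to 0.625). The direct ratio of Tlr4 was past 2-fold and its log2 ratio with 1 added to each RPKM was -0.91, so whether it counts depends on the scale. The same holds for Tlr2, named after its values were seen. Its direct ratio was 0.424 (0.197 to 0.862) from 28 and 12 reads, and its log2 ratio -0.67.

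Among 22 tested adaptors and kinases between receptors and IKK none passed 2-fold on that scale, and the median was 0.05. Traf2, an adaptor of TNF receptors, had a log2 ratio of -0.87 (8.75 and 4.33 RPKM) and a direct ratio of 0.495 (0.366 to 0.664), so its call depends on the scale. Traf1, an adaptor that is itself an NF-kB target, was at 56.3 and 32.8 RPKM, a ratio of 0.583 (0.515 to 0.660). Tradd, the TNF receptor 1 adaptor, and Sharpin, a part of the linear ubiquitin ligase, had ratios of 1.79 (1.18 to 2.76) and 1.71 (1.31 to 2.25).

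Among IkB-type genes outside the 10, a close relative of Nfkbiz was past 2-fold. Nfkbid, which encodes the nuclear IkB-type protein IkBNS, was at 9.98 RPKM in control cells and 1.11 RPKM in tumour-bearing cells, from 107 and 12 reads, 9.003-fold lower (4.95 to 18.0). Bcl3, another nuclear IkB-type protein that partners p50 and p52, had a ratio of 0.765 (0.624 to 0.937), and Nfkbil1 one of 0.810 (0.507 to 1.29). The 4 other IkB-type genes had a median of -0.31. Of 18 tested ubiquitin editors and other brakes, 1 passed 2-fold in the lower and 2 in the higher direction, and the median was 0.02. The lower one was Nkrf, at 3.49 and 0.962 RPKM, and the higher ones were Pdlim2 and Irak3, the latter with 0 and 18 reads; Nkrf and Irak3 were named after their values were seen. Pdlim2, a nuclear ubiquitin ligase that targets p65, was at 62.2 and 141 RPKM, a ratio of 2.27 (2.05 to 2.52). Zc3h12a, the RNase Regnase-1, had a ratio of 0.607 (0.472 to 0.777), Tax1bp1, a partner of A20, one of 1.47 (1.34 to 1.62), and Cops5 one of 1.41 (1.14 to 1.74). Lower levels were thus not shared by all inhibitors of the pathway.

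The 6 genes of IkB degradation and precursor processing were all within 2-fold, with a median of -0.06. Cul1 and Fbxw11, parts of the ligase that marks IkB for the proteasome, had ratios of 1.28 (1.15 to 1.42) and 1.20 (1.05 to 1.38). Rbx1, its RING subunit, and Map3k8, a kinase held by the Nfkb1 precursor, had ratios of 0.881 (0.753 to 1.03) and 0.897 (0.635 to 1.27).

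Genes known as NF-kB targets were divided. In tumour-bearing cells 12 of 32 tested were past 2-fold in the lower direction and 8 in the higher, and the median was -0.61. Over all genes tested these shares were 6.53% and 9.38%. Of the higher genes, Vcam1, Cxcl5, Ccl2, Csf3 and Plau stayed below 5 RPKM in both libraries. Of the lower ones, Cxcl3, Ccl20, Il1b and Bcl2a1a did so. These low genes were named after their values were seen. Cxcl1, a chemokine for neutrophils, was at 123 and 14.4 RPKM, 8.51-fold lower, and Csf2, which encodes GM-CSF, was at 31.2 and 5.21 RPKM, 5.99-fold lower. Lcn2, the iron-scavenging lipocalin 2, was at 901 and 4899 RPKM, and Saa3, a serum amyloid A gene with close paralogs that can share reads, at 1.77 and 51.4 RPKM. The list summed to 2198 RPKM in control cells and 5743 RPKM in tumour-bearing cells, a direction opposite to its median, and Lcn2 was the largest part of the second sum. Traf1, Birc3 and Tnip1 stand in this list and in one above.

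Immediate early genes, a rapid transcriptional response to many stimuli including cell handling, were lower in the same library as Nfkbia, Nfkbiz and Tnfaip3. All 22 were tested, 12 of them were past 2-fold in the lower direction and none in the higher, and the median was -1.31. They summed to 7542 RPKM in control cells and 3372 RPKM in tumour-bearing cells. Egr2, a zinc finger transcription factor gene, was at 15.4 and 1.62 RPKM, and Fosb, an AP-1 subunit gene, at 635 and 160 RPKM. Egr1 and Nr4a1, which encode a zinc finger factor and a nuclear receptor, were 3.52-fold (3.38 to 3.66) and 3.09-fold (2.87 to 3.33) lower. The log2 ratios of this list ran from -2.64 to 0.23, with 21 below 0 and 1 above. The 1 above 0 was Cyr61, and the next highest was Dusp1 at -0.29, both named after their values were seen. Rela and Nfkbib lay above every gene of the list but Cyr61. The part of handling or of a general stimulus in the values of Nfkbia, Nfkbiz and Tnfaip3 was not tested.

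**Figure D4:**
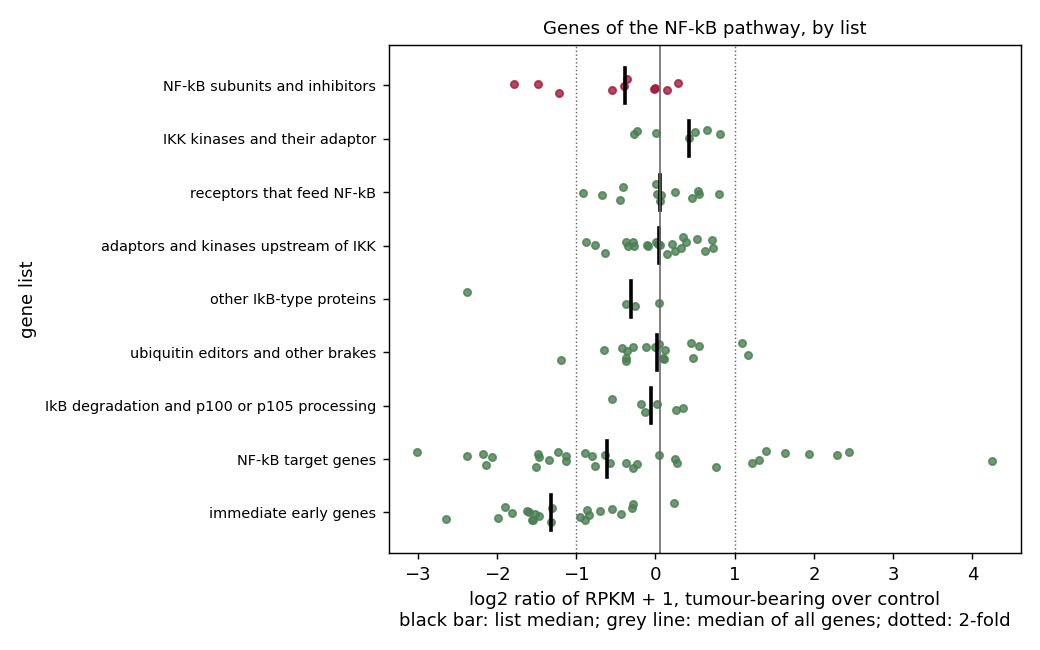
Log2 ratio of RPKM + 1, tumour-bearing over control, for each tested gene (points) of the 10 NF-kB genes and of 8 lists by role, with the list median as a black bar, the median of all genes as a grey line and 2-fold as dotted lines. Points of the IKK, receptor and adaptor lists all lie within 2-fold, target genes spread on both sides, and immediate early genes lie almost wholly below 0.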

How the data were processed

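The authors deposited 1 table of RPKM per library with GeneID, symbol and description, per the file headers. Per the submitters' processing notes, Trimmomatic and mm10 were used, without versions; the sources used here name no aligner, counter, annotation or strand setting. Because RPKM is relative to the library total, abundant genes lower the rest. Genes missing from a table were taken as 0.

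RPKM values were whole multiples of 1 read per gene. The library total was taken as the largest number at which the last 150 rows, read as 1 read each, implied whole gene lengths. Row order settled the multiples, and reads were recovered for 15087 of 15113 genes (99.8%), including all 10 members. In control and tumour-bearing cells 40 of 13910 and 49 of 14256 adjacent rows broke that order. The implied gene length matched a GENCODE M21 transcript for 0 of the 10 members and for 1804 (11.96%) of the genes recovered, and which annotation the authors counted on is unknown here. Totals and reads are estimates of this work. Recovery, ratios and intervals were tested on simulated Poisson reads, drawn from the recovered lengths and totals with rows in exact order. Such data share the assumptions of the method, so they cannot show that it holds for the deposited values.

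Ratios are direct RPKM ratios. Log2 ratios add 1 to each RPKM. Genes that reached 1 RPKM in a library were tested, with a 2-fold size rule. Intervals are exact (Clopper-Pearson) conditional binomial 95% intervals, or exact conditional odds ratio intervals against Rela (SciPy 1.17.1, Python 3.11.15). Reads are not molecules, since PCR was used without molecular identifiers. Members and gene lists were chosen with earlier results of these data known. All members were named, and in each list up to 4 genes that reached 5 RPKM, those of the largest absolute log2 ratio. A planned protein comparison was not made, as no protein table was used here.

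Alternatives were pseudocounts of 0.1 and 5, trimmed-mean and upper-quartile scaling, scaling without Sftpc, centring on the median, recovered reads with 0.5 added, no filter, a filter at 5 RPKM, and 1.5-fold, 4-fold or an interval wholly past 2-fold as the size rule.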

Additional observations from a re-analysis of the deposited data

How the results depend on the processing

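Under both pseudocounts, the 3 scalings, centring and recovered reads, Nfkbia, Nfkbiz and Tnfaip3 kept log2 ratios from -1.58 to -1.45, -1.89 to -1.60 and -1.32 to -1.01. By the 4-fold rule 0 of 10 members were lower; under every other alternative run the number lower was 3 and the number higher 0, with member medians from -0.47 to -0.24. Over all genes, 802 (6.53%) were lower and 1153 (9.38%) higher by the 2-fold rule. With a pseudocount of 5 these were 190 (1.55%) and 370 (3.01%), and with 0.1 they were 1247 (10.1%) and 1539 (12.5%). On recovered reads they were 1282 (10.4%) and 1569 (12.8%). With the 3 scalings, centring, no filter or a filter at 5 RPKM, 4.85% to 7.64% of genes were lower and 7.63% to 8.7% higher. The share of all genes was not computed for the 1.5-fold rule. Rela ranged from -0.11 to 0.00, Relb from 0.05 to 0.17 and Nfkbie from 0.13 to 0.39. On recovered reads 1 gene of the IKK list was at least 2-fold higher, and 2 receptors and 1 adaptor were at least 2-fold lower, where none was on RPKM + 1. Upper-quartile scaling moved the median of all genes from 0.06 to -0.04. No paired analysis was possible because each group has 1 library, and for the same reason no replicate could be left out. Depth limits Rel and Nfkbie most, at 31 to 45 and 27 to 36 reads.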

Other observations

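Further genes of the NF-kB target list, named after their values were seen, lay on both sides. Ptgs2, the inducible cyclooxygenase, was at 69.9 RPKM in control cells and 14.7 RPKM in tumour-bearing cells, 4.76-fold lower (4.22 to 5.38). Il6, the acute-phase cytokine, was at 27.2 and 9.22 RPKM, 2.95-fold lower (2.16 to 4.10), and Cxcl2, a neutrophil chemokine, at 16.8 and 3.26 RPKM, 5.15-fold lower (3.13 to 8.93). Irf1, a transcription factor gene of the interferon response, was at 83.4 and 29.3 RPKM, 2.85-fold lower (2.52 to 3.24). Il1b had 24 reads in control cells and 0 in tumour-bearing cells. In the other direction, Bcl2l1, which encodes the survival protein Bcl-xL, was at 36.05 and 114 RPKM, a ratio of 3.17 (2.85 to 3.53). Ccl2, a monocyte chemokine also made by stromal cells, had 0 reads in control cells and 17 in tumour-bearing cells. Sod2, the mitochondrial superoxide dismutase, had a ratio of 1.03 (0.924 to 1.16), and Icam1, the adhesion molecule, was at 478 and 320 RPKM, a ratio of 0.669 (0.644 to 0.695).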
